A study of Mus musculus with 12 samples.

Results

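The rod phototransduction cascade was examined in R6/1 mice and wt littermates, in retina and in striatum, through 9 genes, chosen by symbol and matched to Ensembl identifiers by their GENCODE names: Gnat1, Gnb1, Gngt1, Pde6a, Pde6b, Pde6g, Cnga1, Cngb1 and Sag. All 9 were found among the 17579 genes of the deposited table. R6/1 mice model Huntington disease and carry, as a transgene, the first exon of human HTT with an expanded CAG repeat, so the mutant fragment is an added copy and the mouse gene is kept. The 12 libraries comprised 3 pools for each genotype (wt or R6/1) in each tissue (retina or striatum), all from untreated males of 13 to 15 weeks on a C57Bl/6 background, which the study's methods give as C57BL/6J. Each library was made from pooled RNA of 3 to 4 mice, so every n below is 3 pools, every SD is a spread between pools, and no value belongs to a single mouse. The retinas and striata were taken from the same animals.

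In rods, light activates a visual pigment, which switches on the G protein transducin, made of an alpha, a beta and a gamma subunit. The alpha subunit releases a phosphodiesterase from its inhibitory subunits, cyclic GMP is broken down, and cyclic GMP-gated cation channels in the outer segment close. Of the 9 genes, 8 encode parts of this activating chain, whereas Sag encodes rod arrestin, which binds the activated pigment and ends the response, so the label of an activation cascade holds for Sag only in a wider sense. Gnb1 is the member with a role in many other cells, as the beta subunit of heterotrimeric G proteins throughout the nervous system.

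All 9 genes were lower in the R6/1 retina than in the wt retina, with R6/1 means between 36.1% (Gnat1) and 62.4% (Gngt1) of the wt means, and in each of the 9 the 3 R6/1 pools lay below the 3 wt pools. In the striatum, 8 of the 9 had between 0 and 34 counts in a library and none of those tested passed the test between genotypes. Gnb1, the member well expressed in both tissues, was lower in the R6/1 retina and had overlapping levels in R6/1 and wt striata.

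Total counts were 14070445 to 22432431 per library. Levels are given as CPM, estimated counts scaled to a common library size with TMM factors. Genotypes were compared with edgeR (quasi-likelihood test) and p-values were adjusted after Benjamini and Hochberg over every gene tested, with a limit of 0.05. In the retina, 12.7% of the 16582 genes tested were lower in R6/1 and 9.58% were higher (2103 and 1588 genes, or 1557 and 960 without wt retina replicate 1). With scaling by library totals the split was 1445 lower and 3886 higher, and the median of all genes moved from 0.014 to 0.13 on the log2 scale, while all 9 members stayed lower. R6/1 retina replicate 3 held 339 CPM of the lens gene Cryaa, against 0.87 to 25.5 CPM in the other retina pools, and all 9 members were also lower without that pool.

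Of the 9 genes, promoter windows of 6 were searched in the RefSeq sequences (GRCm38.p6). Pde6a was left out of the search, and Gnat1 and Pde6g had no window. The windows of 4 genes are shown here because they present the sequence in front of genes that moved together in the retina. They include windows with and without the core letters of 2 photoreceptor factors. The letters TAATCC are the core of the sites bound by the homeodomain factors CRX and OTX2, and TGCTGA is part of the site bound by NRL, the leucine zipper factor that sets rod identity. Each line gives the 130 bases before the RefSeq start, read 5′ to 3′ on the strand of the gene, with either motif, on either strand, in capitals. The windows are chr1:87803550-87803679 (plus strand) for Sag, chr8:95306586-95306715 (minus strand) for Cngb1, chr5:108388243-108388372 (plus strand) for Pde6b and chr4:155491231-155491360 (plus strand) for Gnb1.
Sag: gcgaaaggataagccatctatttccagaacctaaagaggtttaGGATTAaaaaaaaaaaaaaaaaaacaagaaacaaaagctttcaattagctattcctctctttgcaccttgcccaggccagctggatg
Cngb1: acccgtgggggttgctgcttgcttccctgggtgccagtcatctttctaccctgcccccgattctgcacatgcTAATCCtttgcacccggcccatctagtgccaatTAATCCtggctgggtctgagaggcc
Pde6b: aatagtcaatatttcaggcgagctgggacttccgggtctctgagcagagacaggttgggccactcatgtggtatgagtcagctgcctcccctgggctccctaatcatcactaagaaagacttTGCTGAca
Gnb1: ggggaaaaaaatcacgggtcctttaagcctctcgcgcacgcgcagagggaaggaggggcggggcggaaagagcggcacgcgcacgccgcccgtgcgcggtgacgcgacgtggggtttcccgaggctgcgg

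Sag held TAATCC on the opposite strand, 87 bases before the start, and TGCTGA farther out, at 187 bases. Cngb1 held TAATCC at 58 and at 25 bases before the start. Pde6b had TGCTGA at 8 bases and no TAATCC, and Gnb1 had neither motif. Over the 250 bases before the start, searched on both strands, TAATCC was present in 4 of the 6 members searched (Sag, Cnga1, Gngt1 and Cngb1) and in 6.25% of 32851 mouse promoter windows. TGCTGA was present in 2 of the 6 (Sag and Pde6b) and in 16.1% of all windows. Both were present in Sag alone, and in 0.962% of all windows. The windows of Cnga1 and Gngt1 overlapped annotated exons and are not printed. The Gnb1 window was also the richest in G and C, at 69.2% of its 250 bases, compared with 38.4% to 55.6% in the other 5 members and a median of 52.4% over all windows. A match describes the letters in the window and does not show binding.

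Gnat1, the rod transducin alpha subunit (ENSMUSG00000034837, GRCm38 chromosome 9, 107674474 to 107679712, minus strand), ranked 4 among all genes by mean CPM in wt retina, not divided by length. Its level was 9273, 9234 and 11179 CPM in the wt retina pools and 3769, 2605 and 4336 CPM in the R6/1 pools. The highest R6/1 pool was thus at 0.470 of the lowest wt pool. The mean fell from 9896 ± 1112 to 3570 ± 883 CPM (SD, n = 3), a log2 change of -1.44 (SE 0.19; adjusted p = 0.00222), the largest decrease of the 9.

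Gnb1, the beta subunit (ENSMUSG00000029064, chromosome 4, 155491361 to 155559269, plus strand), had 6230, 6250 and 6708 CPM in wt retinas and 3130, 2160 and 3076 CPM in R6/1 retinas. The wt pools were within a narrow range and the second R6/1 pool was the lowest. The log2 change was -1.17 (SE 0.13; adjusted p = 3.26e-05), from 6396 ± 270.3 to 2789 ± 545 CPM. Gngt1, the rod gamma subunit (ENSMUSG00000029663, chromosome 6, 3993792 to 3997436, plus strand), had 1386, 1575 and 1475 CPM in wt and 1031, 774 and 962 CPM in R6/1 pools. It was the member with the smallest decrease, with a log2 change of -0.65 (SE 0.10; adjusted p = 0.00023), and the groups still did not overlap.

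The phosphodiesterase hydrolyses cyclic GMP through the catalytic subunits encoded by Pde6a and Pde6b, which are held in check by the inhibitory subunit encoded by Pde6g. Pde6a (ENSMUSG00000024575) had 3869, 3685 and 4256 CPM in wt and 2161, 1848 and 2364 CPM in R6/1 retinas, a log2 change of -0.86 (SE 0.09; adjusted p = 3.83e-06). Pde6b (ENSMUSG00000029491, chromosome 5, 108388391 to 108432397, plus strand) had 2745, 2613 and 2930 CPM in wt and 1653, 1238 and 1658 CPM in R6/1 retinas, a log2 change of -0.83 (SE 0.10; adjusted p = 4.29e-05). Both catalytic subunits were lowest in the second R6/1 pool and highest in the third wt pool. Pde6g (ENSMUSG00000025386, chromosome 11, 120447605 to 120453500, minus strand) had 1216, 1339 and 1281 CPM in wt and 771, 562 and 718 CPM in R6/1 retinas. With a log2 change of -0.87 (SE 0.10; adjusted p = 5.07e-05), the inhibitory subunit was at the median of the 9 members.

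The cyclic GMP-gated channel of rods is built from the subunits encoded by Cnga1 and Cngb1. Cnga1 (ENSMUSG00000067220, chromosome 5, 72603696 to 72644275, minus strand) had 1347, 1454 and 1397 CPM in wt and 811, 634 and 742 CPM in R6/1 retinas, a log2 change of -0.91 (SE 0.08; adjusted p = 8.46e-07). Cngb1 (ENSMUSG00000031789, chromosome 8, 95239045 to 95306585, minus strand) had the lowest CPM of the members in the wt retina and ranked 80 among all genes on that scale. It had 853, 907 and 897 CPM in wt and 512, 454 and 549 CPM in R6/1 retinas, a log2 change of -0.78 (SE 0.07; adjusted p = 7.98e-07). The wt pools of both channel genes were close together, and both had smaller adjusted p-values than the genes with larger decreases.

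Sag (ENSMUSG00000056055, chromosome 1, 87803680 to 87845158, plus strand) had 4796, 3972 and 4725 CPM in wt and 2101, 1224 and 1854 CPM in R6/1 retinas. The log2 change was -1.35 (SE 0.23; adjusted p = 0.0124), next to Gnat1 in size, with the widest error of the 9. Sag was also the member whose edgeR call depended on a library: without wt retina replicate 3 its adjusted p was 0.0530, at a log2 fold change of -1.31. With all retina libraries, its adjusted p was 1.88e-07 by DESeq2 and 0.000274 by edgeR with a spread that was not robust.

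**Figure D1:**
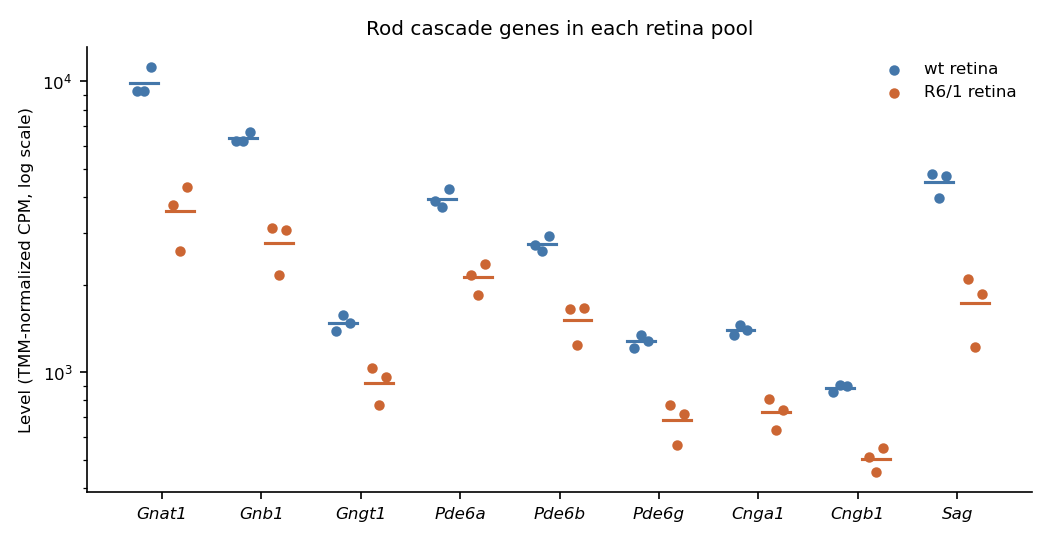
Level of the 9 rod cascade genes in each retina pool, in TMM-normalized CPM on a log axis, with 3 wt (blue) and 3 R6/1 (orange) pools per gene, in order of replicate number, and a bar at each group mean. Every R6/1 point lies below every wt point of the same gene, and the second R6/1 pool is the lowest for all 9.

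Over the 9 genes the median log2 fold change was -0.87, against 0.014 over all genes tested in the retina, and 9 of 9 passed as lower. Pools that did not overlap, with R6/1 below wt, were seen for 23.0% of all genes tested and for 9 of 9 members. R6/1 retina replicate 2 was the lowest R6/1 pool for all 9 members and for 36.5% of the genes tested. The highest wt pool was replicate 3 for 4 genes (Gnat1, Gnb1, Pde6a and Pde6b), replicate 2 for 4 (Gngt1, Pde6g, Cnga1 and Cngb1) and replicate 1 for Sag. In whole tissue, fewer rods and less RNA per rod cannot be told apart.

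The 9 genes held 3.14% ± 0.163 of all counts in wt retinas (3.01% to 3.33%) and 1.55% ± 0.267 in R6/1 retinas (1.25% to 1.72%), a measure that does not use a scaling factor. The ranges did not overlap, and the exact permutation test (two-sided) gave p = 0.1, the smallest that 3 against 3 pools can give. Without Gnb1 the shares were 2.53% and 1.26%.

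Per kilobase of the longest coding transcript, the wt retina levels were 4251 CPM for Gnat1, 2616 for Sag, 2035 for Gnb1, 1421 for Pde6g, 1250 for Gngt1, 987 for Pde6b, 858 for Pde6a, 511 for Cnga1 and 143 for Cngb1. Gnat1 and Sag stood above the rest and the channel subunits below. In wt pools the ranges of all 8 pairs of neighbours in this order were apart. In R6/1 pools the order was the same except that Gngt1 (779) stood before Pde6g (759), and 5 of 8 neighbouring pairs overlapped, among them Gnat1 with Sag. The order depended on the transcript length assumed. With the union of all exons as length, Sag came to 505 CPM per kilobase and Pde6a, at 840, stood above Pde6b (549.7) and Pde6g (552), while Gnat1 stayed the highest and Cngb1 the lowest.

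Ratios between members within a library do not depend on scaling and show whether the genes of a pair fell by unequal amounts. There were 6 pairs, each tested by an exact permutation test (two-sided) on log2 ratios of counts, for which 0.1 is the smallest p. Sag and Gnat1 are not partners of a complex. Gnb1 has a role in other cells too, so its whole-retina counts need not come from rods alone. The ratio of Gnat1 to Gngt1 counts was 6.69, 5.86 and 7.58 in wt pools and 3.66, 3.37 and 4.51 in R6/1 pools. The alpha subunit was therefore lower relative to the gamma subunit in all 3 R6/1 pools, with a log2 difference of -0.81 (SE 0.16; exact p = 0.1, adjusted over the 6 pairs 0.3). Gnat1 to Gnb1 was 1.49, 1.48 and 1.67 in wt and 1.20, 1.21 and 1.41 in R6/1 pools, again without overlap, with a log2 difference of -0.28 (SE 0.09; exact p = 0.1, adjusted 0.3).

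The other 4 pairs overlapped between genotypes. Pde6a to Pde6b had geometric means of 1.42 in wt and 1.41 in R6/1 (log2 difference -0.018, SE 0.058; exact p = 0.9, adjusted 0.9), and Pde6g to Pde6b 0.463 and 0.451 (-0.039, SE 0.080; exact p = 0.8, adjusted 0.9). Both differences between phosphodiesterase subunits were smaller than their errors. Cngb1 to Cnga1 was 0.633 in wt and 0.694 in R6/1 (0.13, SE 0.07; exact p = 0.3, adjusted 0.6). Sag to Gnat1 was 0.455 and 0.482 (0.084, SE 0.15; exact p = 0.6, adjusted 0.9), with wide scatter in both groups. Neither of the 2 transducin ratios passed after adjustment, which this design does not allow.

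**Figure D2:**
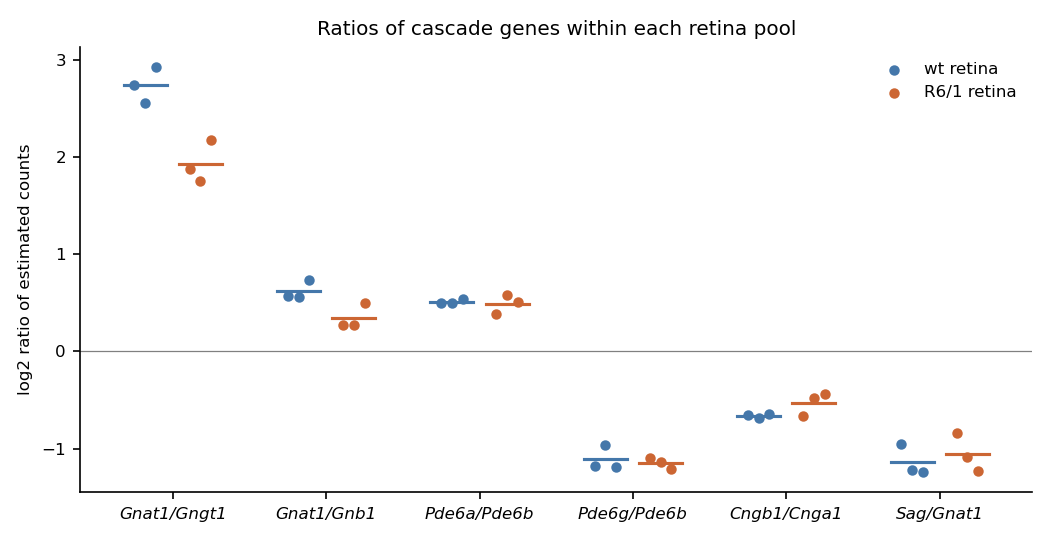
Log2 ratio of estimated counts of 6 pairs of cascade genes in each of 3 wt (blue) and 3 R6/1 (orange) retina pools, in order of replicate number, with a bar at each mean. Both ratios with Gnat1 as numerator lie lower in R6/1 pools without overlap, whereas the other 4 pairs overlap.

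Cones use a parallel cascade with their own subunits, and 8 counterparts were compared with the rod genes. Gnb3, the beta subunit of cone transducin, is also known from ON bipolar cells. Of the 8, 7 were lower in the R6/1 retina and Gnb3 was higher, against 12.7% lower and 9.58% higher over all genes tested. Arr3, cone arrestin, had a log2 change of -3.89 (SE 0.23; adjusted p = 0.000412), from 184 ± 43.2 to 12.2 ± 1.09 CPM. Pde6h, the cone inhibitory subunit, had -2.82 (SE 0.14; adjusted p = 2.43e-06). Both decreases were larger than that of any rod member.

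Gnat2, cone transducin alpha, had a log2 change of -2.06 (SE 0.08; adjusted p = 2.89e-10) and Pde6c, the cone catalytic subunit, of -1.55 (SE 0.08; adjusted p = 1.3e-09). Gnb3 had 0.73 (SE 0.06; adjusted p = 2.07e-07), from 205 ± 10.9 to 332 ± 9.43 CPM. The remaining 3, Gngt2, Cngb3 and Cnga3, fell by 1.05, 0.89 and 1.70 on the log2 scale. The median of the cone list was -1.62, against -0.87 for the rod members.

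The ratio of rod to cone counts was then taken within each library. For Sag to Arr3 the ratio was 21.2, 28.4 and 25.5 in wt pools and 158, 101 and 167 in R6/1 pools, a log2 difference of 2.48 (SE 0.26; exact p = 0.1, adjusted over 8 pairs 0.133). Pde6g to Pde6h went from a geometric mean of 11.03 to 42.8 (1.96, SE 0.10), with no overlap between pools. Gnb1 to Gnb3 differed in the opposite direction, from 30.2, 32.3 and 31.2 in wt to 9.46, 6.31 and 9.51 in R6/1 pools (-1.91, SE 0.20). Together, 6 of the 8 ratios did not overlap between genotypes, 5 of them higher in R6/1 (for Sag, Pde6g, Cnga1, Pde6b and Gngt1) and 1 lower (for Gnb1), each with an exact p = 0.1 and an adjusted value of 0.133. Gnat1 to Gnat2 had 49.4, 48.8 and 61.1 in wt and 78.9, 56.6 and 116 in R6/1 pools, where the second R6/1 pool overlapped the wt range (exact p = 0.2). Cngb1 to Cngb3, at 21.9 and 23.7, differed by 0.12 on the log2 scale (SE 0.08; exact p = 0.3).

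**Figure D3:**
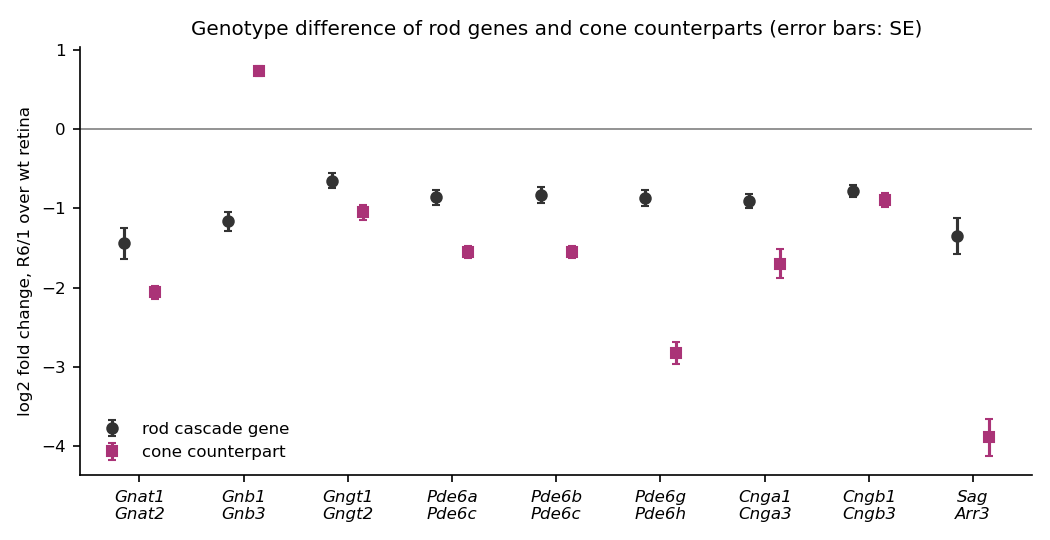
Log2 fold change of R6/1 over wt retina for each rod cascade gene (black circles) and its cone counterpart (purple squares), with error bars of 1 SE and a line at 0. Pde6c is the counterpart of both Pde6a and Pde6b and is drawn in both places; Gnb3 is the only point above 0, and Arr3 and Pde6h are the lowest.

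Genes that act around the cascade were counted from lists, each member tested in the same fit. Every list count below stands beside the share over all genes, 12.7% lower and 9.58% higher. All 10 genes of recovery and calcium feedback were lower in R6/1 retinas (median -0.85 on the log2 scale). Grk1, the kinase that phosphorylates the visual pigment, had -1.22 (SE 0.07; adjusted p = 7.49e-09), and Rgs9bp, which anchors the complex that speeds transducin shut-off, had -1.21 (SE 0.07; adjusted p = 3.14e-09). Gucy2e, a guanylate cyclase that restores cyclic GMP, had -0.88 (SE 0.08) and Gnb5, the beta subunit of the shut-off complex, -0.61 (SE 0.07).

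Of 14 genes of assembly, prenylation and transport, 6 were lower, 1 was higher and 7 did not pass, with a median of -0.10. Pdc, phosducin, which binds the transducin beta and gamma subunits, had -1.14 (SE 0.09; adjusted p = 7.75e-08) and fell from 3355 to 1493 CPM. Prph2 and Rom1, tetraspanins that shape the outer segment discs, had -1.19 (SE 0.09) and -1.08 (SE 0.13), and Unc119, a carrier of acylated transducin alpha, had -0.84 (SE 0.08). The general prenylation enzymes in this list did not follow in a body: Fnta had 0.14, Fntb 0.08, Pggt1b 0.09 and Rce1 0.13, none past the test, while Icmt, which methylates prenylated proteins, was lower at -0.31 (SE 0.07; adjusted p = 0.00333).

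Of the 4 photoreceptor transcription factors, Nrl (-1.17, SE 0.11), Nr2e3 (-1.02, SE 0.11) and Crx (-0.60, SE 0.08) were lower, and Otx2 was higher (0.38, SE 0.06; adjusted p = 0.000107). Otx2 also serves bipolar cells and the pigment epithelium. In the single fit of all 12 libraries, Otx2 had 0.34 with an adjusted p of 0.533.

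Other G protein subunits were counted beside the share over all genes, 12.7% lower and 9.58% higher. Of 11 beta and gamma subunits outside the phototransduction lists, 2 were lower and 3 higher (median 0.16). Gnb2 rose by 0.54 (SE 0.08; adjusted p = 4.81e-05) and Gng11 by 0.64 (SE 0.14; adjusted p = 0.00397), whereas Gng2 and Gng13, the latter known from ON bipolar cells, fell by 0.45 and 0.55. Of 9 alpha subunits, 2 were lower and 1 higher (median 0.10), close to the share over all genes: Gnaz had -0.33 (SE 0.07), Gnao1 -0.23 (SE 0.06) and Gnas 0.17 (SE 0.06), and the fourth named gene, Gnal, had -0.21 with an adjusted p of 0.0558. Gnas lost its call when any of 5 single pools was left out.

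**Figure D4:**
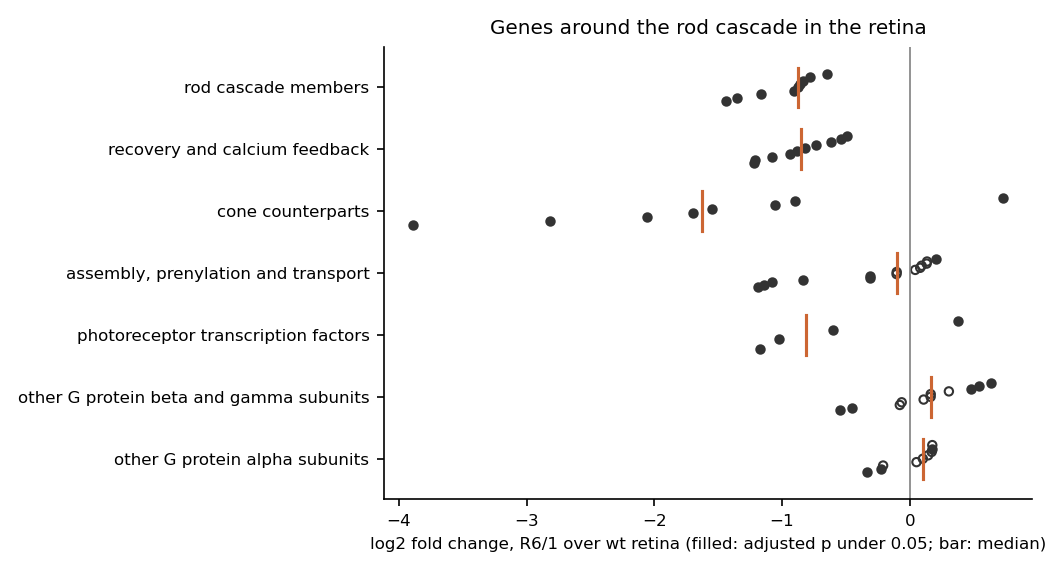
Log2 fold change of R6/1 over wt retina for the genes of each list (1 point a gene, filled where the adjusted p was under 0.05), with an orange bar at the median of the list and a grey line at 0. Members of the rod cascade, recovery and cone lists lie below 0 apart from Gnb3, and the medians of the other G protein lists are 0.16 and 0.10.

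Markers of other retinal cells were counted in the same fit, and their part in the results of the rod genes was not tested. The share over all genes tested in the retina was 12.7% lower and 9.58% higher. Lower in R6/1 were 7 of 8 bipolar, 5 of 7 amacrine, 3 of 4 horizontal and 7 of 7 ganglion cell markers, while 1 bipolar marker (Gnb3) was higher. Of 7 Müller glia markers 1 was lower and 2 higher, of 6 microglia markers 2 were higher, and none of 6 pigment epithelium and 5 lens markers tested passed by edgeR or DESeq2 (2 pigment epithelium and 0 lens markers had an unadjusted edgeR p under 0.05). Summed, bipolar markers were at 1097 to 1204 CPM in wt and 910 to 954 CPM in R6/1 retinas, and at 903 to 989 and 579 to 613 CPM without Gnb3. Müller glia markers summed to 3901 to 4407 and 3390 to 3745 CPM, a difference carried by Glul, glutamine synthetase, since the other 6 summed to 1708 to 1761 CPM in wt and 1722 to 1827 CPM in R6/1 retinas. Microglia markers summed to 18.9 to 19.6 CPM in wt and 26.9 to 29.9 CPM in R6/1 retinas.

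The striatum has no rods, and there the members other than Gnb1 were near or at 0. Cnga1 was listed at 0 in all 6 striatal libraries. Because no gene in the table had between 1 and 9 counts over the 6 libraries of a tissue, a listed 0 is not taken as proof of absence and no limit is given for it. Gnat1 had 4, 6 and 11 counts in wt and 4, 7 and 9 in R6/1 striata, and Sag had 25, 26 and 27 in wt and 13, 31 and 34 in R6/1 striata. Sag had the most counts of the 8 in this tissue.

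Cngb1 had 4, 20 and 13 counts in wt and 3, 23 and 2 in R6/1 striata. The number 2 library was the highest in both genotypes. These 2 libraries also had the most Slc17a6, a vesicular glutamate transporter of thalamic and other neurons, at 55.3 and 96.3 CPM against 10.7 to 22.7 CPM in the other 4, and the most Otx2, at 3.31 and 5.08 CPM against 0.54 to 1.04. The part of other tissue in the Cngb1 counts was not tested.

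The remaining genes had 0 to 6 counts in a library. Pde6b was the member of which no R6/1 striatal pool, scaled to depth, lay below a wt pool, with 1, 3 and 2 counts in wt and 3, 4 and 6 in R6/1, a level at which a few counts decide the order (log2 fold change 0.96, SE 0.68; adjusted p = 0.473). Of all striatal genes tested, 12.8% had R6/1 pools wholly above the wt pools.

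**Figure D5:**
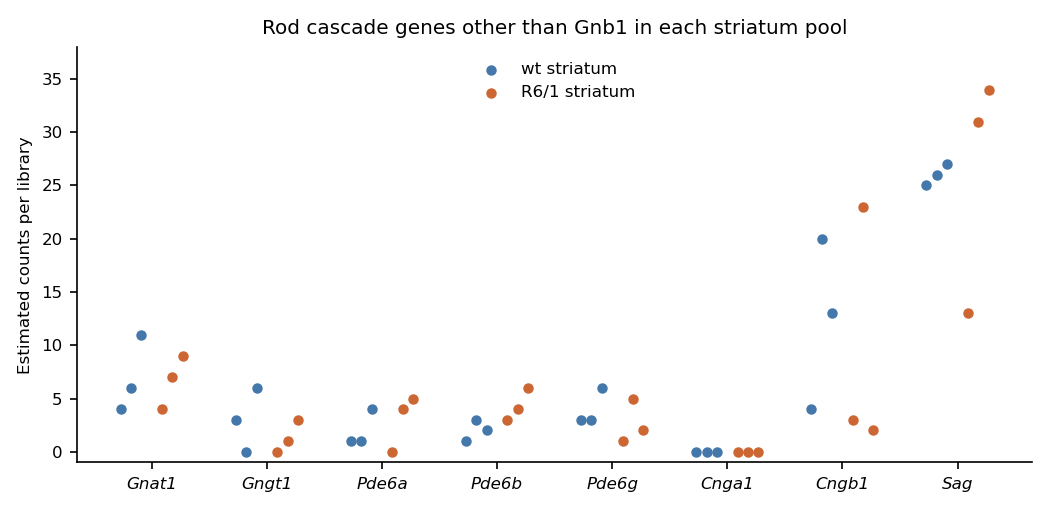
Estimated counts of the 8 members other than Gnb1 in each of 3 wt (blue) and 3 R6/1 (orange) striatum pools, in order of replicate number. Cnga1 is listed at 0 in all pools, Sag is the highest gene in every pool, and Cngb1 is highest in the second pool of both genotypes.

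Gnb1 had 598, 534 and 570 CPM in wt and 542, 543 and 564 CPM in R6/1 striata, from at least 8752 counts in each library. The groups overlapped, and the log2 fold change was -0.046 (SE 0.074; adjusted p = 0.781). Of the 8 members tested in the striatum 0 passed, where 1.32% of 16728 genes were lower and 0.132% higher, and none had an unadjusted p under 0.05 by edgeR or DESeq2 (smallest p of the members 0.191 and 0.376). That background depended strongly on single libraries. With the replicate number as a block, which joined wt and R6/1 striata of equal number, 7.11% were lower and 2.83% higher. Lower and higher genes numbered 220 and 22 in all 6 libraries, 1 and 0 without wt replicate 1, 1201 and 715 without wt replicate 2, and 5 and 0 without wt replicate 3. They numbered 6 and 0 without R6/1 replicate 1 and 26 and 1 without R6/1 replicate 3, while library totals gave 209 and 220 and moved the median of all genes to 0.12 on the log2 scale. In each of these fits 0 members passed.

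The difference between the genotype effects of both tissues was tested on all 12 libraries. This fit and those between tissues treated the libraries as independent, although retinas and striata came from the same animals. In the test of the difference, the replicate block joined wt and R6/1 pools of equal number and did not pair tissues by animal. For Gnb1 the retinal effect differed from the striatal one by -1.15 on the log2 scale (SE 0.16; adjusted p = 0.000608). Of 15731 genes tested, 4.86% had a lower and 3.38% a higher effect in the retina (765 and 531 genes). These were 445 and 322 genes without wt retina replicate 1, 510 and 346 without wt retina replicate 3, 467 and 325 when wt striatum replicate 1 was left out and 1097 and 902 when replicate 2 was, while library totals gave 555 and 637. Gnb1 was the single member of 8 that passed. The difference was -1.81 for Pde6b (SE 0.66; adjusted p = 0.109) and -1.32 for Pde6a (SE 0.87; adjusted p = 0.391). It was -1.25 for Sag (SE 0.46; adjusted p = 0.125) and -1.27 for Gnat1 (SE 0.74; adjusted p = 0.332). These genes had 0 to 34 counts in a striatal library, and Sag and Gnat1 also had the widest retinal errors of the members (SE 0.23 and 0.19). The source of the wide errors was not tested. Pde6g, Cngb1 and Gngt1 had -0.22, -0.28 and 0.54 (SE 0.81, 0.70 and 1.03). Sag passed by DESeq2 (adjusted p = 0.0146), with the replicate number as a block (0.0317) and without R6/1 retina replicate 2 (0.0487).

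Between tissues, all 9 members were higher on the retinal side in wt mice, as were 37.8% of 16864 genes tested, whereas 38.5% were lower. For genes chosen from the rod cascade this direction followed from the choice, so the count is descriptive. Cnga1, Pde6a, Pde6b and Gngt1, with 0, 6, 6 and 9 counts over the wt striata, met the limit of 10 counts only through the retina. Gnb1 differed least, by 3.49 on the log2 scale (SE 0.09; adjusted p = 2.57e-11). By pooled counts over library totals, without TMM factors, its striatal level was 8.64% of the retinal one. Cngb1 differed by 10.28 (SE 0.20), Sag by 11.56 (SE 0.16), Pde6g by 12.40 (SE 0.16) and Gngt1 by 13.01 (SE 0.25). Pde6b, Gnat1 and Pde6a, with 14.47, 14.57 and 14.98 (SE 0.17, 0.22 and 0.21), stood at the far end. Leaving out single libraries gave 14.20 to 14.77 for Pde6b, 14.33 to 15.09 for Gnat1 and 14.59 to 15.94 for Pde6a. The SE, taken from F, did not cover these shifts, so the order among these genes is not settled. The folds of Gngt1 and Pde6a rested on 0 to 6 striatal counts in a library: Gngt1 had 12.36 without wt striatum replicate 2 and 13.996 without replicate 3, and Pde6a had 15.94 without replicate 3, which changes the order. No fold is given for Cnga1. In R6/1 mice, 9 of 9 members were again higher in the retina (36.3% of 16885 genes, with 36.9% lower), Gnb1 by 2.35 (SE 0.14). Here too the direction followed from the choice of genes. Cnga1, Gngt1, Pde6g and Pde6a, with 0, 4, 8 and 9 counts over the R6/1 striata, met the limit of 10 counts only through the retina.

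As a check of the label, 7 of the 9 had striatal levels of at most 0.0924% of the retinal ones, by pooled counts over library totals. Cnga1 was listed at 0 in the striatum, and Gnb1 was well expressed in both tissues. The comparison of tissues does not tell rods from other retinal cells. The striatal label was checked with markers of medium spiny neurons, which summed to 2808 to 3804 CPM in wt and 862 to 1657 CPM in R6/1 striata. They summed to 906 to 963 CPM in wt retinas, where Rgs9, which is also a phototransduction gene, gave 847 CPM on average.

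The genes whose profile was nearest to the mean profile of the 8 members other than Gnb1 were sought among 9835 genes with at least 10 CPM in wt retina, by the root mean square difference of centred log2 CPM over the 12 libraries. They were Slc24a1, the rod sodium, calcium and potassium exchanger (0.156), Kcnv2, a photoreceptor potassium channel subunit (0.264), Guca1a, an activator of guanylate cyclase (0.275), Rp1l1 (0.307) and Aipl1, a chaperone of the phosphodiesterase (0.343). Slc24a1 fell from 2004 ± 141 to 1114 ± 159 CPM in the retina, with at most 0.275 CPM in the striatum. This ranking is dominated by the tissue difference. Over the 6 retina libraries alone the nearest genes were Ssbp4 (0.049), Rtbdn (0.050), Heatr5a (0.051), A930004D18Rik (0.058) and Fam57b (0.058), of which 0 were among the former 5. Ssbp4 had up to 53.9 CPM in the striatum, so a gene near the members over the retina pools could also be expressed outside the retina.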

How the data were processed

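RNA of 12 pools was sequenced from stranded mRNA libraries. The submitters' processing notes name CASAVA, Trimmomatic and Salmon with GRCm38/mm10, and versions are not given in the sources used here. The deposited values are estimated counts per gene, given as whole numbers and not normalized by the authors. Nothing read here says how transcripts were summed per gene. The sample labels' extraction text names striata for the retina samples too, and tissues were taken from the titles. Of the 17579 genes, 17527 matched a GENCODE M21 symbol. No exon of a member overlapped an exon of another gene, and a member's reads shared with a similar gene were divided by Salmon. The mutant transgene was not analysed here.

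The counts were compared in R 4.3.3 with edgeR 4.0.16 (quasi-likelihood test, robust spread, TMM factors). Genes needed 10 counts or more over the libraries compared, or over each tissue for the difference. DESeq2 1.42.0 was an alternative. SE is the log2 fold change divided by the root of F. The fits were tested on simulated data. Ratios and shares were compared by exact permutation tests (scipy 1.17.1). Tables used pandas 2.3.3, and figures used matplotlib 3.10.9. Nothing in the labels ties the pools to separate cages or days, so p-values measure the spread between pools.

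All 9 members were named, with up to 4 genes of each list with the smallest p in the retina and the 5 nearest profiles; Fnta, Fntb, Pggt1b, Rce1, Icmt, Glul and the remaining cone genes were named after their values were seen. The members and lists were chosen with earlier results of these data known. Alternatives were other scaling, filters, DESeq2, spread that was not robust, a single fit of 12 libraries, the replicate number as a block, and leaving out each library. Added after seeing the data were other transcript lengths, profiles over the retina alone and marker sums without Gnb3 or Glul.

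Equal replicate numbers were checked by correlating deviations from group means over 10445 genes. Libraries of equal number were called alike where all 3 correlations were over 0.1. For numbers 1, 2 and 3 these were 0.124, -0.094 and 0.051 between the retinas (not alike) and 0.274, 0.329 and 0.257 between the striata (alike). They were 0.242, 0.119 and 0.179 between R6/1 tissues (alike) and -0.026, 0.019 and 0.001 between wt tissues. Retinas and striata of a genotype came from the same mice by the study's methods. The wt and R6/1 striata came from different mice, and no label pairs them. An unmatched pair, wt striatum 1 with R6/1 striatum 3, reached 0.240.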

Additional observations from a re-analysis of the deposited data

Results flagged for a closer look

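Gnb1 stood out because its genotype effect differed between tissues by a test of the difference itself: the retinal log2 fold change differed from the striatal one by -1.15 (SE 0.16; edgeR adjusted p = 0.000608). All 3 R6/1 retina pools, at 2160 to 3130 CPM, lay below the wt pools at 6230 to 6708 CPM, whereas in the striatum the ranges of 542 to 564 and 534 to 598 CPM overlapped. Leaving out any single library gave differences between -1.24 and -0.997. The other members had 0 to 34 counts in a striatal library, against at least 8752 for Gnb1. Pde6b, Pde6a, Gnat1 and Sag had larger negative differences with wider errors, whereas Pde6g, Cngb1 and Gngt1 did not. In the same test 3 of 9 recovery, 3 of 13 assembly and 1 of 5 cone genes also passed as lower, against 4.86% of all genes tested. Of 2 photoreceptor transcription factors and 9 other alpha subunits 0 passed. Of 11 other beta and gamma subunits 1 passed as higher, against 3.38% of all genes. It was Gnb2, at 0.71 (SE 0.10; edgeR adjusted p = 0.000934). In whole tissue, a change within cells and a change in the mix of cells that express Gnb1 cannot be told apart.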

How the results depend on the processing

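All 9 members kept a lower level in the R6/1 retina under every alternative run, and all passed except Sag without wt retina replicate 3. There 8 of 9 passed, and Sag had a log2 fold change of -1.31 (edgeR adjusted p = 0.0530). In the striatum 0 members passed under any alternative, and Gnb1 turned from -0.046 to 0.067 with library totals, not past the test either way. The number of members that passed the test as having a lower retinal than striatal effect went from 1 to 2 by DESeq2 and with the replicate block. It was 1 to 2 when single libraries were left out. The block changed no other call of a member. Leaving out single pools moved 3 ratios with differences near 0 across it: Pde6a to Pde6b ranged from -0.060 to 0.035, Pde6g to Pde6b from -0.080 to 0.034, and Sag to Gnat1 from -0.021 to 0.18, where 3 against 2 pools cannot go below an exact p of 0.2. Scaling by library totals raised the number called higher from 1 to 3 in the assembly list, from 3 to 5 among other beta and gamma subunits and from 1 to 5 among other alpha subunits, with 1 in place of 2 alpha subunits lower. It also shifted the median of all genes by over 0.1. With single pools left out, 0 to 1 assembly genes and 0 to 2 alpha subunits were higher. With counts of 0 to 34 in the striatum, genotype differences of the 8 rod genes other than Gnb1 were not detectable there unless large. The causes of these shifts were not tested.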
